A study of Mus musculus with 22 samples.

Results

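The small leucine-rich proteoglycan genes osteoglycin (Ogn), decorin (Dcn), lumican (Lum), biglycan (Bgn), fibromodulin (Fmod), osteomodulin (Omd), asporin (Aspn) and Prelp were followed through neurons and glia of the contralateral hippocampus (CLH). These 8 genes are rows of the count table whose Ensembl identifier maps to one of these symbols, out of 53379 genes in the table and 40714 genes tested. All 8 passed the filter on low counts. They were chosen by name around Ogn, which was itself picked from these data as a gene with lower counts in kainate than in sham neurons. The comparison of kainate with sham neurons is therefore a description for these genes, without a test.

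The animals were male mice of the C57/BL6N strain that arrived 8 weeks old and were kept for another 4 weeks. They received 70 nl of 20 mM kainate, or saline as sham, over the right hippocampus, and the left hippocampi were taken 24 h later. Hippocampi of the 8 mice of a treatment were combined into 3 pools of 4 or 2 mice, so that each value is that of a pool and not of a mouse. The study sequenced its mRNA libraries on 2 platforms, and the fits do not include pool size or platform. Antibody staining for NeuN, a nuclear protein of neurons, separated neurons (NeuN+) from glia (NeuN-) by sorting, and mRNA of the nuclei was sequenced. Glia here stands for all nuclei without NeuN. By the study's account, these may include a minor part of endothelial cells, pericytes and neurons. The groups are kainate neurons (KLp, n = 3), sham neurons (SLp, n = 3), kainate glia (KLn, n = 3) and sham glia (SLn, n = 2, replicates 1 and 3). The sample labels speak of right hippocampi in the extraction protocol, while titles and study design name the left side, and the values are taken as left. No transgene or mutant allele is named for any group.

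Small leucine-rich proteoglycans are secreted proteins of the extracellular matrix. Their curved core of leucine-rich repeats binds collagen and shapes its fibrils, and most members carry glycosaminoglycan chains made of chondroitin, dermatan or keratan sulfate. Several also bind growth factors of the TGF-beta family or receptors at the cell surface. In the brain they are best known from meningeal and perivascular fibroblasts.

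Ogn, Omd and Aspn lie in tandem on the plus strand of chromosome 13 with a further family gene, Ecm2, in the order Ecm2 (chr13:49504810-49532789), Aspn (chr13:49544443-49567565), Omd (chr13:49582462-49592822) and Ogn (chr13:49608046-49624501), in GRCm38 by the GENCODE M21 annotation. All 4 lie within the span of Cenpp on the opposite strand, and only Aspn shares exon bases with it (7 bases, 0.297% of its exon length). Dcn (chr10:97479609-97518143) and Lum (chr10:97565128-97572703) are neighbours on chromosome 10, Fmod (chr1:134037254-134048277) and Prelp (chr1:133910304-133921414, minus strand) lie near each other on chromosome 1, and Bgn (chrX:73483602-73495933) is on the X chromosome. Prelp shares 350 exon bases, 9.68% of its exon length, with Gm15851, so some of its reads could belong to that gene. The 250 bases before the RefSeq start (GRCm38.p6) are shown for the 4 tandem genes on chromosome 13, because the levels of Ogn and Ecm2 in sham and kainate neurons did not overlap while those of Aspn, between them, did. Capitals mark letters that match TATAAA or GGGCGG on either strand, and TGANTCA and TGACGTCA were searched in the same way. The windows are chr13:49504560-49504809 for Ecm2, chr13:49544193-49544442 for Aspn, chr13:49582212-49582461 for Omd and chr13:49607765-49608014 for Ogn, all on the plus strand.
Ecm2: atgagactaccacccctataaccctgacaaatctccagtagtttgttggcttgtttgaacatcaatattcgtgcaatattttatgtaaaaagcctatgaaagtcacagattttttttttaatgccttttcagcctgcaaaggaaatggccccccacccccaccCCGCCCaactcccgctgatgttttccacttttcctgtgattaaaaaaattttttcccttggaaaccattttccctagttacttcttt
Aspn: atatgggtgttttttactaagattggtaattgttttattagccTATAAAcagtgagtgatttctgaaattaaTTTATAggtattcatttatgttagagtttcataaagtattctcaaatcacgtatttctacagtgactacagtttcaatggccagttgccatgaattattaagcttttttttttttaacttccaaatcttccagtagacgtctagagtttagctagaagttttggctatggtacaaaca
Omd: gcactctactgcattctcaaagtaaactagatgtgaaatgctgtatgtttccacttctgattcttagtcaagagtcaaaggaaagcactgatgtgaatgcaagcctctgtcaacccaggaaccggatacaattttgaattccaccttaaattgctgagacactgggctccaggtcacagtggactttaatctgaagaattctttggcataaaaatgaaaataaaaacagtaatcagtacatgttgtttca
Ogn: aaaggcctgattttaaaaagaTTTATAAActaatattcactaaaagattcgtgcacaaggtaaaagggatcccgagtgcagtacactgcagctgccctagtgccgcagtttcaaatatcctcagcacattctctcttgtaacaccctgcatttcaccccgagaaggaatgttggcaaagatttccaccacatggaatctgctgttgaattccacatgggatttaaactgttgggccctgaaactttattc
The window of Ogn held TATAAA once on each strand, in an overlap, and had a GC content of 42%. Ecm2 held GGGCGG once, on the minus strand, and no TATAAA. Aspn held TATAAA once on each strand with no overlap, and Omd held none of the 4 motifs. Of 32851 RefSeq promoter windows of the same length, 12.4% held TATAAA, 32.7% GGGCGG, 6.75% TGANTCA and 1.55% TGACGTCA. Windows for Bgn, Fmod and Prelp were also searched. Bgn held GGGCGG 3 times, with overlaps, and Fmod and Prelp held none of the motifs. Such matches are letters in a window and were not tested as binding sites.

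Values are normalized CPM (counts scaled to a common library size by the TMM method), and levels of different genes are compared only after division by exon length in kb. The deposited counts came to 12058875 to 45428465 per library, and the members had 1 to 1658 counts in a library. KLn replicate 2 and SLn replicate 1 were made from 0.05 ng RNA with 15 PCR cycles, against 1 ng and 10 cycles for the other libraries, and the 4 libraries of replicate 1 had the highest summed neuronal markers among neurons and the highest summed oligodendrocyte markers among glia. Of the sorting markers, 6 of 6 neuronal genes were higher and all 4 oligodendrocyte, 5 astrocyte, 5 microglia and 4 oligodendrocyte precursor genes lower in neurons, each at FDR below 0.25.

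Per kb of exon, Dcn had the highest level of the 8 genes in sham neurons, at 9.54 CPM per kb on average, followed by Ogn at 3.96 and Lum at 1.63. The other 5 genes lay between 0.0696 (Bgn) and 0.790 (Omd). The means of Dcn and Lum were raised by SLp replicate 1, with 19.1 CPM per kb against 5.15 and 4.41 in replicates 2 and 3 for Dcn, and 3.37 against 0.727 and 0.777 for Lum. Omd, at 0.843 and 0.989 CPM per kb, was above Lum in replicates 2 and 3. By the means of sham glia, Prelp was highest at 8.73 CPM per kb, ahead of Dcn at 2.27 and Fmod at 1.655, and Aspn was lowest at 0.572. Prelp had 13.2 CPM per kb in SLn replicate 1 and 4.21 in replicate 3, and was highest in both. In replicate 3, Fmod (0.720) was below Ogn (0.908) and Omd (0.838). The lowest gene was Omd (0.483) in replicate 1 and Lum (0.466) in replicate 3. Ogn, Dcn and Lum had their highest group mean in sham neurons, and the other 5 genes had theirs in glia. For Lum this rests on SLp replicate 1, at 8.26 CPM, since SLp replicates 2 and 3 (1.78 and 1.90 CPM) were below the means of SLn (3.29 CPM) and KLn (2.88 CPM).

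**Figure D1:**
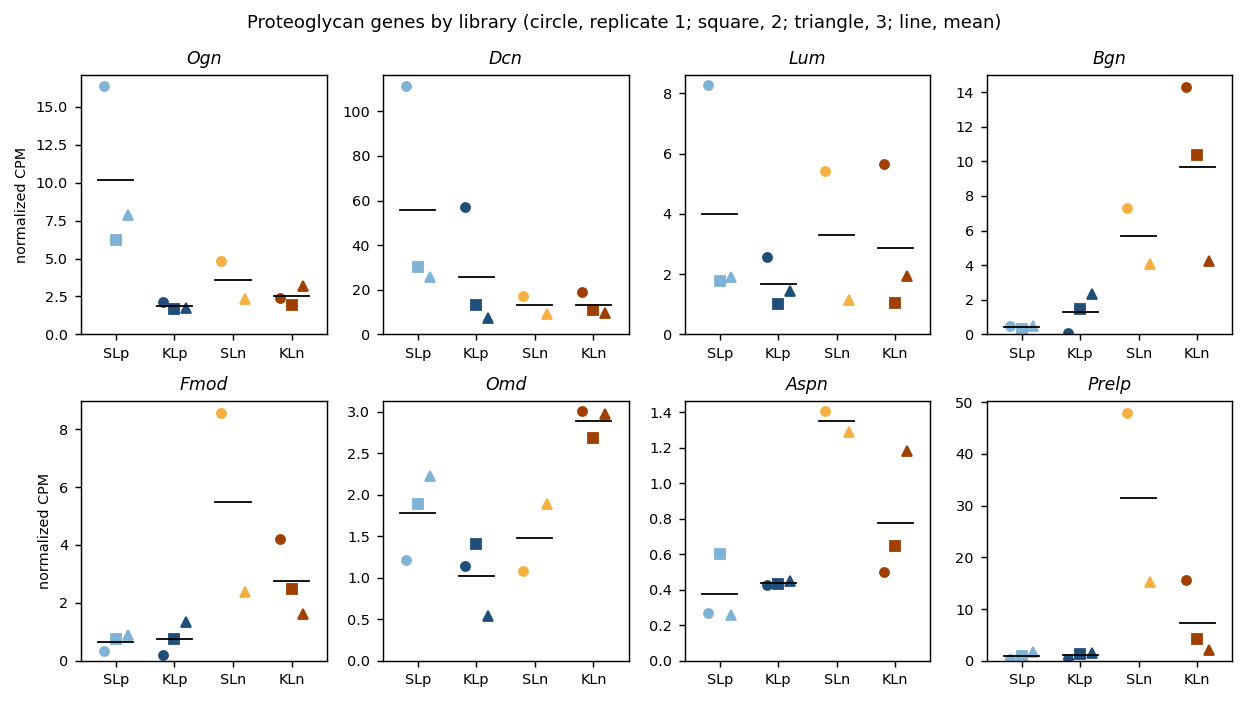
Normalized CPM of the 8 genes in each library, with sham neurons (SLp), kainate neurons (KLp), sham glia (SLn) and kainate glia (KLn) on the x axis, replicates 1, 2 and 3 as circle, square and triangle, and the group mean as a line. Ogn lies between 6.20 and 16.4 CPM in sham neurons and at or below 4.86 CPM in all other libraries, whereas Bgn, Fmod and Prelp are higher in every glia library than in any neuron library.

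Ogn encodes osteoglycin, also known as mimecan, a member with keratan sulfate chains in some tissues. Its level was 16.4, 6.20 and 7.90 CPM in SLp replicates 1, 2 and 3 (244, 216 and 245 counts), and 2.13, 1.71 and 1.76 CPM in KLp replicates 1, 2 and 3 (30, 67 and 39 counts). In glia it was 4.86 and 2.33 CPM in SLn replicates 1 and 3, and 2.38, 1.97 and 3.18 CPM in KLn replicates 1, 2 and 3. The sham neuron libraries lay above all 8 other libraries, and of the other 3 groups, in the order SLn, KLn and KLp, each overlapped the next. Means were 10.2 ± 5.45 CPM in SLp (SD, n = 3), 1.87 ± 0.234 in KLp (n = 3), 3.59 ± 1.79 in SLn (n = 2) and 2.51 ± 0.613 in KLn (n = 3).

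In neurons, the log2 fold change of Ogn after kainate was -2.44 with a standard error, SE, of 0.51, a level 5.44-fold lower, and all 3 same-numbered pairs were lower in kainate, by -2.89, -1.81 and -2.12 on the log2 scale. Of the 8 genes, 1 (Ogn, lower) was called at a false discovery rate (FDR) below 0.25, the threshold of the study, against 0.165% of all genes tested in this comparison. Ogn was chosen on this contrast, so nothing is read from its call. The call was lost without any 1 of the 6 neuron libraries or without KLn replicate 2, and with low RNA input as a covariate, while the log2 fold change stayed between -2.70 and -1.92 with single libraries left out. In bulk nuclei, fewer nuclei of a type and less RNA per nucleus cannot be told apart.

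Dcn, which binds collagen, TGF-beta and the receptors Egfr and Met, was lower in kainate than in sham neurons in each same-numbered pair, but its groups overlapped. Its level was 111, 30.1 and 25.8 CPM in SLp replicates 1, 2 and 3, and 57.2, 13.1 and 7.43 CPM in KLp replicates 1, 2 and 3. Replicate 1 was the highest library in both groups, and KLp replicate 1 was above SLp replicates 2 and 3. The log2 fold change was -1.11 (SE 0.71) over all libraries, -0.11 without SLp replicate 1 and -2.43 without KLp replicate 1.

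Lum, a keratan sulfate proteoglycan of collagen-rich tissue, measured 8.26, 1.78 and 1.90 CPM in SLp replicates 1, 2 and 3, and 2.56, 0.994 and 1.44 CPM in KLp replicates 1, 2 and 3. Here too the pairs were all lower after kainate and the groups overlapped. Its log2 fold change of -1.26 (SE 0.82) became -0.16 without SLp replicate 1. With all 4 libraries of replicate 1 left out, a choice made after the data were seen, the log2 fold changes in neurons were -2.10 for Ogn, -1.51 for Dcn and -0.69 for Lum.

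Omd, first known from bone matrix, had 1.21, 1.90 and 2.22 CPM in SLp replicates 1, 2 and 3, and 1.14, 1.40 and 0.540 CPM in KLp replicates 1, 2 and 3, with a log2 fold change of -0.79 (SE 0.57). Bgn, a close relative of Dcn and a ligand of Toll-like receptors, had 0.470, 0.287 and 0.516 CPM in SLp, and 0.0711, 1.45 and 2.34 CPM in KLp. Its low values rest on 7, 10 and 16 counts in sham and 1, 57 and 52 counts in kainate neurons. Bgn was thus higher after kainate in pairs 2 and 3 and lower in pair 1, with a log2 fold change of 1.63 (SE 0.81), which was 0.94 without KLp replicate 3. Fmod, Aspn and Prelp were between 0.213 and 1.71 CPM in all neuron libraries, with log2 fold changes of 0.21, 0.19 and 0.12 and overlapping groups.

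Over the 8 genes, the log2 fold changes in neurons had a median of -0.33, against -0.015 over all genes tested. Libraries of kainate and sham neurons did not overlap for 1 of 8 genes (Ogn), as for 7.86% of all genes tested. Same-numbered kainate and sham libraries deviated together, and with the replicate number as a block 3 of the 8 genes were called (Ogn and Dcn lower, Bgn higher), against 5.09% of all genes tested. As this comparison chose Ogn and the genes around it, nothing is read from either count. The blocked log2 fold changes were -2.30 for Ogn, -1.31 for Dcn and 1.57 for Bgn.

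**Figure D2:**
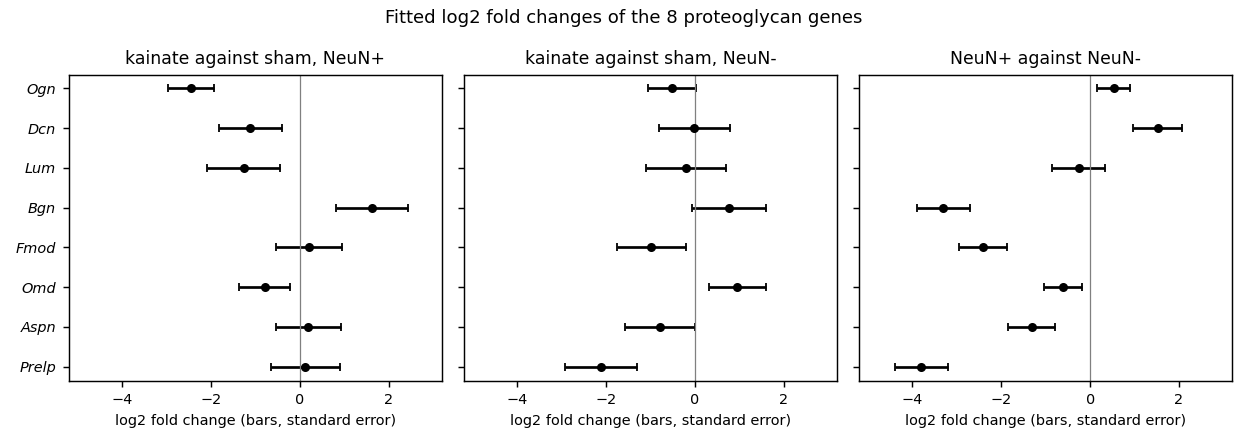
Fitted log2 fold changes of the 8 genes (points) with standard errors (bars) for kainate against sham in neurons, kainate against sham in glia, and neurons against glia over both treatments. Ogn has the lowest value in neurons (-2.44), Prelp the lowest in glia (-2.12) and in neurons against glia (-3.80).

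In glia, a comparison on which none of the genes was chosen, 0 of 8 genes were called at FDR below 0.25 by edgeR, against 0.101% of all genes tested. At an unadjusted p below 0.05 there was 1 gene, Prelp, and DESeq2 called 0. Ogn had a log2 fold change of -0.51 (SE 0.54, FDR = 1 by edgeR), with 1 of 2 same-numbered pairs lower after kainate. The difference between its change in neurons and its change in glia was -1.93 on the log2 scale (SE 0.75), given without a test since it contains the contrast that chose Ogn. Dcn had 17.4 and 9.07 CPM in SLn replicates 1 and 3, and 19.2, 10.8 and 9.50 CPM in KLn replicates 1, 2 and 3, with a log2 fold change of -0.01 (SE 0.79). Lum had 5.43 and 1.14 CPM in SLn and 5.64, 1.05 and 1.94 CPM in KLn. For both genes the kainate and sham glia libraries overlapped. Without SLn replicate 1 the log2 fold changes in glia turned to 0.13 for Ogn, 0.56 for Dcn and 1.34 for Lum, and without KLn replicate 1 they were -0.61, -0.50 and -1.29, so the direction in glia rests on single libraries.

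Prelp, a basement membrane protein whose basic end binds heparan sulfate, had the lowest log2 fold change of the 8 genes in glia. Its level was 47.9 and 15.2 CPM in SLn replicates 1 and 3, and 15.7, 4.14 and 2.11 CPM in KLn replicates 1, 2 and 3. KLn replicate 1 was just above SLn replicate 3, so the groups overlapped. The log2 fold change was -2.12 (SE 0.81, FDR = 1 by edgeR) and both same-numbered pairs were lower after kainate, by -1.60 and -2.81 on the log2 scale. With the replicate number as a block, 1 of 8 genes was called in glia, Prelp, with a log2 fold change of -2.20 (SE 0.36, FDR = 2.74e-05), against 5.79% of all genes tested. The change of Prelp moved with single libraries of both treatments, to -3.46 (FDR = 0.561) without KLn replicate 1, -1.04 (FDR = 0.981) without SLn replicate 1 and -2.73 (FDR = 0.236) without SLn replicate 3, and it was -0.75 (FDR = 1.00) without the low-input libraries. Over its alternatives, the FDR of Prelp in glia ranged from 2.74e-05 to 1.

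Within each treatment, the level of Prelp in glia moved with the summed CPM of 4 oligodendrocyte markers (Mbp, Mog, Mag and Mobp), which was 11194 and 3665 in SLn replicates 1 and 3, and 7522, 4394 and 2094 in KLn replicates 1, 2 and 3. Per 1000 CPM of these markers, a scale chosen after the values were seen, Prelp was 4.28 and 4.15 CPM in SLn and 2.08, 0.942 and 1.01 CPM in KLn, without overlap. All 4 of these markers were detected in every library. Summed astrocyte markers were 959 to 3770 CPM in SLn and 347 to 2270 CPM in KLn, and those of oligodendrocyte precursors 953 to 3180 and 288 to 1520 CPM. Summed microglia markers were 611 to 3160 CPM in SLn and 557 to 1570 CPM in KLn. Of the markers of these 4 cell types, edgeR called 0 in kainate against sham glia, with an unadjusted p below 0.05 for 1 precursor (Gpr17) and 1 microglia marker (P2ry12), and DESeq2 called 1 (P2ry12). With the replicate block, 2 of 4 oligodendrocyte, 4 of 4 precursor, 3 of 5 astrocyte and 2 of 5 microglia markers were called lower and 0 higher. Of all genes tested, this block called 5.79% in glia. The part of these shifts in the result for Prelp was not tested.

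Kainate and sham glia libraries did not overlap for 2 of 8 genes, Omd (higher) and Aspn (lower), as for 8.22% of all genes tested. Omd had 1.09 and 1.88 CPM in SLn replicates 1 and 3, and 3.01, 2.68 and 2.98 CPM in KLn replicates 1, 2 and 3, with a log2 fold change of 0.95 (SE 0.65, FDR = 1 by edgeR). Summed choroid plexus markers (6 genes) were also higher in kainate glia without overlap, at 32.6 to 105 CPM in KLn against 23.3 to 28.5 CPM in SLn, with 0 of 6 called by edgeR or DESeq2, 0 at an unadjusted p below 0.05, and 2 called higher with the replicate block. Their part in the values of Omd was not tested. Aspn, which binds collagen and usually lacks a glycosaminoglycan chain, had 1.41 and 1.29 CPM in SLn, and 0.502, 0.645 and 1.18 CPM in KLn, with a log2 fold change of -0.78. Bgn had 7.28 and 4.07 CPM in SLn and 14.3, 10.4 and 4.27 CPM in KLn, and Fmod 8.56 and 2.38 CPM in SLn and 4.20, 2.48 and 1.63 CPM in KLn. Their log2 fold changes of 0.76 and -0.99 had an FDR of 1 in edgeR, and that of Fmod turned to 0.24 without SLn replicate 1. Over the 8 genes the median in glia was -0.36, against 0.02 over all genes tested. With the replicate block these medians were -0.08 and 0.11.

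Between the fractions, the genes fell on both sides. Over both treatments, 5 of 8 genes were called in neurons against glia, Dcn higher and Bgn, Fmod, Aspn and Prelp lower, against 37.2% of all genes tested. The median log2 fold change was -0.97 over the 8 genes and -0.47 over all genes tested. With the pool as a block, which compares both fractions of the same hippocampi, 7 of 8 genes were called, against 59.7% of all genes tested. Ogn (0.67, FDR = 0.0708) and Omd (-0.68, FDR = 0.174) were added, and Lum (0.05, FDR = 0.899) was not called. The pools of Omd went both ways, with a NeuN+ minus NeuN- difference on the log2 scale of 0.14 and 0.23 in the sham pools and of -1.34, -0.90 and -2.30 in the kainate pools. Libraries of neurons and glia did not overlap for 3 of 8 genes, Bgn, Fmod and Prelp, as for 15.2% of all genes tested.

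Prelp had the lowest log2 fold change between the fractions over all libraries, at -3.80 (SE 0.595, FDR = 0.000382 by edgeR), and was lower in NeuN+ nuclei in 5 of 5 pools. Its neuron libraries held 0.336, 0.976 and 1.71 CPM in SLp and 0.427, 1.35 and 1.53 CPM in KLp, all below the lowest glia library at 2.11 CPM. Bgn followed with -3.30 (SE 0.59, FDR = 0.00111) and Fmod with -2.41 (SE 0.55, FDR = 0.0062), and both were lower in 5 of 5 pools. Fmod was -1.78 without SLn replicate 1. With replicates 2 and 3 only, the log2 fold changes were -2.53 for Bgn, -2.19 for Prelp and -1.14 for Fmod, so Bgn was then the lowest. With the pool block, the FDR was 0.00286 for Prelp, 0.00335 for Bgn and 0.0143 for Fmod. Aspn was lower with -1.32 (SE 0.54, FDR = 0.119, and 0.0337 with the pool block), also in 5 of 5 pools, at counts of only 4 to 42 per library. The size differed between pools, and the NeuN+ minus NeuN- difference on the log2 scale was -6.85 in sham pool 1, where NeuN+ nuclei gave 5 counts, and -0.44 in kainate pool 3 for Prelp, and -4.38 and -0.26 in the same pools for Fmod.

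Dcn was the gene called higher in neurons, with a log2 fold change of 1.52 (SE 0.55, FDR = 0.0782 by edgeR) and 4 of 5 pools higher in NeuN+ nuclei. Kainate pool 3 was the exception, with 7.43 CPM in NeuN+ and 9.50 CPM in NeuN- nuclei. Without KLp replicate 1, the log2 fold change of Dcn was 0.86 (FDR = 0.255), and with the pool block it was 1.30 (FDR = 0.00507). Ogn was not called without a block over all libraries (log2 fold change 0.53, FDR = 0.349). It was also called with the replicate block (0.52, FDR = 0.102), and its log2 fold change was 0.87 without SLn replicate 1. Its pools went both ways, with NeuN+ above NeuN- nuclei in the 2 sham pools with both fractions (16.4 against 4.86 CPM, and 7.90 against 2.33 CPM) and below them in the 3 kainate pools (2.13 against 2.38, 1.71 against 1.97 and 1.76 against 3.18 CPM). Within a treatment the contrast of the fractions shares libraries with the one that chose Ogn and was not tested.

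Across the 11 libraries, the log2 CPM of Prelp and Fmod correlated with Pearson r = 0.953, those of Bgn and Fmod with r = 0.891, and those of Ogn and Dcn with r = 0.698, while Ogn and Omd, neighbours on chromosome 13, had r = 0.03. These are descriptions over libraries that share pools and fractions, without a test.

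Meningeal fibroblasts are a known source of several of these transcripts, so 16 other markers of these cells were summed. All 16 were tested, and their sum was 59.9 to 73.7 CPM in SLp, 46.7 to 70.7 CPM in KLp, 149 to 203 CPM in SLn and 114 to 162 CPM in KLn. Kainate and sham neurons overlapped in this sum. Of the 16 markers, 12 were called lower and 0 higher in neurons than in glia, against 37.2% of all genes tested called in either direction. The part of these cells in the values of Ogn and Dcn was not tested. Foxc2 and Igf2 were at 0 in at least 1 library of each neuron group, and no marker was at 0 in glia. Pericyte and smooth muscle markers summed to 10.7 to 25.9 CPM in SLp, 14.9 to 28.3 CPM in KLp, 75.2 to 147 CPM in SLn and 51.4 to 108 CPM in KLn. The summed neuronal markers were 3120 to 6650 CPM in SLp and 2830 to 5790 CPM in KLp, with replicate 1 highest in both groups. Summed microglia markers did not overlap between SLp (41.2 to 61.4 CPM) and KLp (62.4 to 66.7 CPM), and their part in the values of Ogn was not tested.

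**Figure D3:**
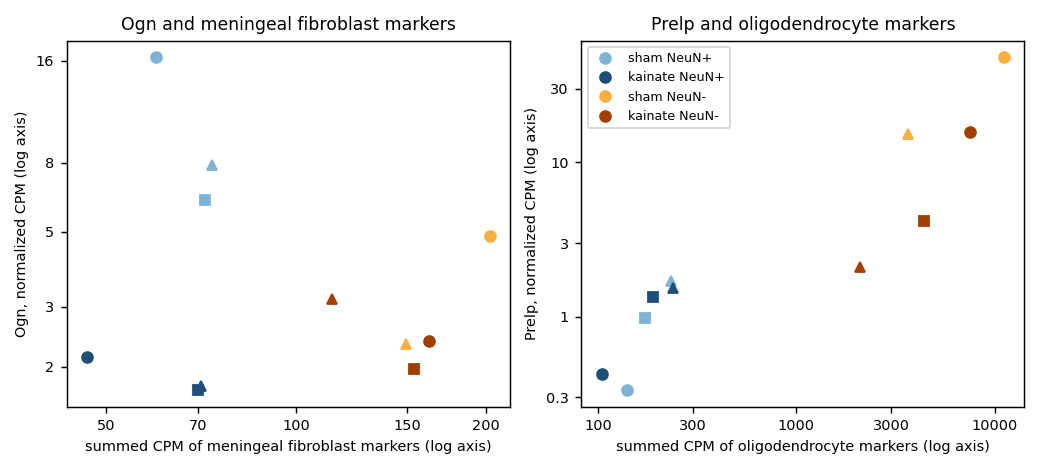
Left, normalized CPM of Ogn against the summed CPM of 16 meningeal fibroblast markers, and right, normalized CPM of Prelp against the summed CPM of 4 oligodendrocyte markers, 1 point per library (circle, square and triangle for replicates 1, 2 and 3, all axes logarithmic). Sham and kainate neurons differ in Ogn at marker sums that overlap (59.9 to 73.7 and 46.7 to 70.7 CPM), and glia libraries with more oligodendrocyte marker counts have more Prelp within each treatment.

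The region around Ogn was examined because its family neighbours share it. Within 200 kb of the start of Ogn, 14 other genes are annotated, and 13 were tested. Ecm2, which starts at -103 kb from the start of Ogn, had 18.4, 10.2 and 14.9 CPM in SLp replicates 1, 2 and 3, and 7.97, 3.77 and 2.88 CPM in KLp replicates 1, 2 and 3, without overlap. In glia Ecm2 had 8.05 and 8.08 CPM in SLn, and 6.02, 5.56 and 6.27 CPM in KLn. The log2 fold changes of Ecm2 were -1.58 in neurons (SE 0.43) and -0.44 in glia. The other 12 genes had log2 fold changes in neurons from -0.79 (Omd) to 0.44. Cenpp, whose span covers the 4 tandem genes, had 4.12 CPM on average in SLp and 2.47 in KLp, with a log2 fold change of -0.73 (SE 0.48). Nuclear RNA holds unspliced transcripts and the strand setting of the counting is not given in the sources used here, so reads of unspliced Cenpp over the exons of the tandem genes cannot be told apart from reads of those genes.

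**Figure D4:**
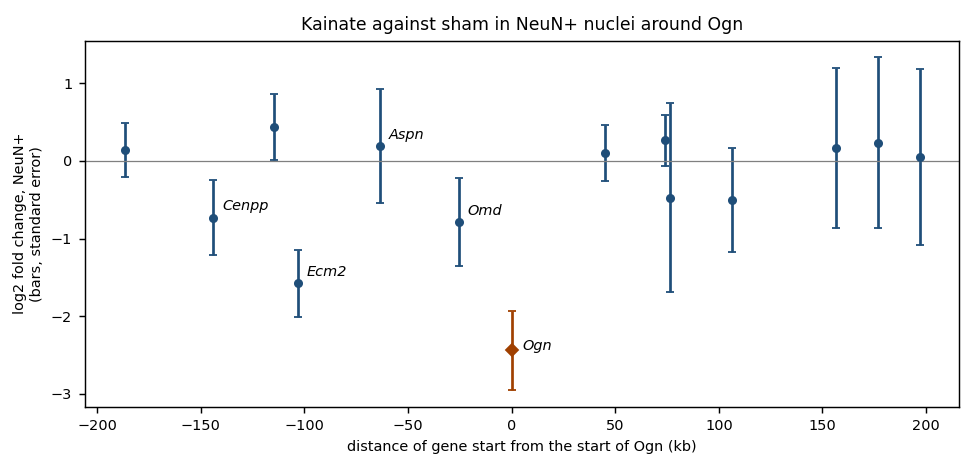
Log2 fold change of kainate against sham in neurons (y axis, bars are standard errors) against the distance of each gene's start from the start of Ogn in kb (x axis) for Ogn (diamond) and the 13 tested genes within 200 kb (circles). Ogn (-2.44) and Ecm2 (-1.58) are the lowest, while Omd (-0.79) and Aspn (0.19) lie between them on the chromosome.

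By Pearson correlation of log2 CPM over the 11 libraries, among 25501 genes with an average log2 CPM of at least 0, the 5 genes most like Ogn were Aqp11 (r = 0.905), Nbeal2 (r = 0.887), Ecm2 (r = 0.883), Cd34 (r = 0.874) and Ppic (r = 0.855). Aqp11, an intracellular water channel, ranged from 22.9 to 49.5 CPM in SLp and from 7.88 to 16.8 CPM in KLp. Cd34, a sialomucin of endothelial and progenitor cells, ranged from 44.5 to 115 CPM in SLp and from 11.7 to 36.1 CPM in KLp. Nbeal2 (53.5 to 69.8 and 27.7 to 33.3 CPM) and Ppic, a cyclophilin (1.46 to 4.16 and 0.811 to 1.28 CPM), were also without overlap between sham and kainate neurons. The likeness is measured over the libraries in which Ogn was chosen for its change and is a description.

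Of 10 other family genes, 0 were called by edgeR in kainate against sham neurons and 0 in glia, with median log2 fold changes of -0.46 and 0.09. In neurons 1 of them, Ecm2, had an unadjusted p below 0.05 and was called by DESeq2, and in glia both counts were 0. With the replicate number as a block the medians were -0.47 and -0.19 and 1 was called lower in each, and in neurons this was Ecm2 (-1.65, FDR = 5.89e-05, against -1.58 and FDR = 0.588 without the block). In neurons against glia, 1 was called higher and 2 lower, against 37.2% of all genes tested. With the pool block 1 was higher and 3 lower, against 59.7% of all genes tested. Podn, which encodes podocan, was higher in neurons (log2 fold change 1.16, SE 0.52, FDR = 0.157), with 4.97 CPM in SLp and 1.72 CPM in SLn on average. Chadl, a chondroadherin-like protein, was lower (-1.58, SE 0.32, FDR = 0.00283), with 32.3 CPM in SLp and 99.0 CPM in SLn, and Tsku, encoding tsukushi, was lower as well (-1.69, SE 0.48, FDR = 0.0251).

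Of 22 genes of glycosaminoglycan chain synthesis, which build and sulfate the chains that the core proteins carry, 0 were called after kainate in either cell type by edgeR, with median log2 fold changes of -0.03 in neurons and -0.12 in glia. At an unadjusted p below 0.05 there were 0 in neurons and 2 in glia (Csgalnact1 and Chsy3), and DESeq2 called 0 and 1 (Chsy3). With the replicate block, 4 were higher and 2 lower in neurons, and 1 higher and 3 lower in glia. Of all genes tested, this block called 5.09% in neurons and 5.79% in glia. Compared with glia, neurons had 11 higher and 5 lower, against 37.2% of all genes tested called in either direction. Chst1, which sulfates keratan sulfate, was higher in neurons, at 512 CPM in SLp against 75.5 CPM in SLn (log2 fold change 2.80, FDR = 4.38e-05). Chsy3 and Chpf2, which extend chondroitin chains, were higher by 1.90 and 1.82 on the log2 scale (FDR = 0.000163 and 0.000237). Chst14, which sulfates dermatan, was lower (-2.32, FDR = 0.000794), as were B3gnt7 of keratan sulfate synthesis (-2.17, FDR = 0.000549) and the chondroitin synthase Chsy1 (-0.53, FDR = 0.172).

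Of 10 fibrillar collagen genes, which encode the proteins whose fibrils these proteoglycans bind, 2 were called higher and 0 lower in kainate neurons, and 0 in glia, where Col11a2 was the 1 gene at an unadjusted p below 0.05 and the 1 gene called by DESeq2. Col27a1 averaged 14.6 CPM in SLp and 203 CPM in KLp (FDR = 0.0247), and Col5a3 17.3 and 68.0 CPM (log2 fold change 1.97, SE 0.38, FDR = 0.153). With the replicate block 4 were higher and 0 lower in neurons, and 0 higher and 2 lower in glia. Of all genes tested, 0.165% and 0.101% were called in neurons and glia without the block, and 5.09% and 5.79% with it. In neurons against glia 3 were higher, Col5a1 (2.42, FDR = 6.64e-05), Col5a2 (2.42, FDR = 0.000158) and Col11a1 (1.51, FDR = 0.00153). Another 6 were lower, among them Col11a2 (-1.95, FDR = 0.000341), Col5a3 (-1.64, FDR = 0.000685) and Col3a1 (-1.82, FDR = 0.00094). Of all genes tested, 37.2% were called between the fractions. Col1a1, Col1a2 and Col3a1 are also in the meningeal fibroblast list.

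Of 6 TGF-beta ligand and receptor genes and 8 genes of cell surface receptors that bind these proteoglycans, 0 were called after kainate in either cell type by edgeR. At an unadjusted p below 0.05 there were 2 in neurons (Tgfbr2 and Tgfbr3) and 0 in glia, and DESeq2 called 1 (Tgfbr2) and 0. In neurons against glia, Tgfbr3, a coreceptor, was higher (1.68, FDR = 0.000389), and Tgfb1 (-3.48, FDR = 4.48e-05), Tgfbr2 (-2.19, FDR = 9.61e-05) and Tgfbr1 (-2.68, FDR = 0.000189) were among 4 called lower. Of the 8 receptors, 0 were higher and 3 lower in neurons, the Toll-like receptors Tlr4 (-3.74, FDR = 5.4e-05) and Tlr2 (-3.76, FDR = 6.91e-05), which bind Bgn, and Egfr (-1.72, FDR = 0.000679), which binds Dcn. Tlr2 averaged 1.20 CPM in SLp and 14.5 CPM in SLn. With the replicate block, 2 of the TGF-beta genes were higher and 1 lower in kainate neurons and 0 were called in glia, and of the receptors 0 were called in neurons and 1 higher and 1 lower in glia. Between the fractions the pool block gave 2 higher and 4 lower TGF-beta genes and 0 higher and 6 lower receptors. DESeq2 also called 6 receptors (Tlr2, Tlr4, Egfr, Erbb4, Igf1r and Kdr). Of all genes tested, 37.2% were called between the fractions without a block and 59.7% with the pool block. The replicate block called 5.09% of all genes tested in kainate neurons and 5.79% in glia.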

How the data were processed

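Gene expression was measured by mRNAseq in 11 libraries of sorted NeuN+ and NeuN- nuclei, and 11 bisulfite samples were not analysed here. The authors removed adapters, mapped reads to mm10 with Rsubread, and used featureCounts to count reads with a unique position on the genes of GENCODE M16, and the deposited values are these raw counts. The submitters' processing notes name Trim Galore 0.4.3, Bismark 0.20, Bowtie2 and edgeR for the series. Of 53379 genes, 105 had no symbol and were dropped, and filterByExpr (minimum count 10, minimum total 15) kept 40714. Counts were scaled by TMM and a quasi-likelihood model with 4 group means (glmQLFit, legacy=TRUE) was fitted in edgeR 4.0.16 (R 4.3.3, limma 3.58.1), with a common biological coefficient of variation of 0.600, and 7 residual and 6.76 prior degrees of freedom. P-values were adjusted over all genes of a comparison by the Benjamini-Hochberg method, and genes were called at FDR below 0.25. Each FDR is from this test, with the block added or the library left out where one is named.

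The members and gene lists were chosen with earlier results of these data known. Named genes are the 8 members, up to 3 called genes per list and direction with the smallest p, and the 5 genes most like Ogn by correlation of log2 CPM (prior count 2). Ecm2, Cenpp and markers were named for results that turn on them. A further oligodendrocyte marker of the list is not reported here and is left out of the sums. Same-numbered kainate and sham libraries correlated by 0.161 to 0.787 over 5 pairs after group means were removed, and NeuN+ and NeuN- libraries of a pool, which come from the same mice, by 0.24 to 0.668, so blocked values are given where a block changed the call of a member or moved a count of calls in the report by over 1.5 times. Alternatives were DESeq2 1.42.0 (size factors or Wald test), other filters, separate fits, blocks, low input as a covariate, left-out libraries and FDR below 0.05. The fits were also run on simulated counts with known changes. These counts held no effect shared by a pool or replicate, so they cannot show what a block gains. The reads carry no molecular identifiers and the number of pools limits the precision. P-values rest on the spread between pools within a group. Without the pool block, the fit treats both fractions of a pool as independent, though they come from the same mice.

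Positions are of GRCm38 from GENCODE M21, a later release on the same build. Promoter sequences are from RefSeq (GRCm38.p6) and were found for 6 of 8 members, and for Ecm2.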

Additional observations from a re-analysis of the deposited data

Results flagged for a closer look

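Dcn, Lum and Omd were lower after kainate in all 3 same-numbered pairs of neurons and higher in both same-numbered pairs of glia. KLn replicate 2 has no sham partner and is not in this count. The 3 genes were found by looking for opposite directions among the members other than Ogn. How many of all genes tested show such directions was not determined. The pair differences in glia were small for Dcn, at 0.14 and 0.07 on the log2 scale, and for pair 1 of Lum, at 0.06, against 0.73 in its pair 3. The log2 fold changes in neurons and glia were -1.11 and -0.012 for Dcn, -1.26 and -0.20 for Lum, and -0.79 and 0.95 for Omd. With the replicate block the values in glia were 0.10 for Dcn and 0.38 for Lum. For Dcn and Lum the direction of the fitted value in glia turned with single libraries left out, to 0.56 and 1.34 without SLn replicate 1 and to 0.12 and 0.20 without KLn replicate 2, and it was -0.50 and -1.29 without KLn replicate 1. The difference between the cell types was not tested, because it contains the comparison on which the set was chosen.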

How the results depend on the processing

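The log2 fold change of Ogn after kainate in neurons was -2.44 and stayed below 0 in all 21 alternatives, from -2.70 to -1.92. The number of members called in glia was 0 and became 1 (Prelp, lower) with the replicate block within each fraction and, in a choice made after the data were seen, with replicates 2 and 3 only, and ranged from 0 to 1 with single libraries left out. In neurons against glia, 5 members were called, 3 at FDR below 0.05 (Bgn, Fmod and Prelp), and 4 to 7 with single libraries left out. The other genes of the lists called after kainate in neurons were 2, and 5 by DESeq2's Wald test, 1 without a filter, 5 in separate fits, 14 with the replicate block, 1 at FDR below 0.05, 8 with replicates 2 and 3 only, and 1 to 3 with single libraries left out. In glia they were 0, and 2 by DESeq2's Wald test, 9 with the replicate block, 3 with replicates 2 and 3 only, and 0 to 8 with single libraries left out. The causes were not tested. In neurons against glia 36 such genes were called, and 24 to 45 in the alternatives. Both blocks together changed the calls given in the report and no other call of a member in glia or between the fractions. Separate fits give no value between the fractions. When 1 of the sham glia libraries is dropped, the spread of the remaining 1 is assumed equal to that elsewhere. Counts of 1 to 69 per library limit Bgn, Fmod, Omd, Aspn and Prelp in neurons.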
